A study of Mus musculus with 3 samples.

Results

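A set of 280 cells of embryonic day 15 (E15) was described, named after the prosensory domain of the embryonic mouse cochlea. They were part of 13637 cells that passed the filters in the study. The cells came from droplet-based single-cell RNA sequencing, in which each captured RNA molecule is counted once through its unique molecular identifier (UMI). A cell belonged to the set if it had at least 500 genes and at most 20% mitochondrial UMIs, at least 1 UMI of Epcam plus Cdh1, and at least 1 UMI of 2 or more of the 6 genes Sox2, Tectb, Tecta, Fgf20, Fst and Lfng. It also had to lack any UMI of Otx2 and Cdh5, markers of the duct's roof and of blood vessels. Sox2 was not required, and 16 and 17 cells of E15 replicates 1 and 2 entered by Tectb and Tecta alone. The set may thus reach beyond the prosensory domain. The set held 139 of 2838 cells in E15 replicate 1 (4.90%, exact 95% interval 4.13 to 5.76) and 141 of 3537 in E15 replicate 2 (3.99%, 3.37 to 4.68). The members were thus chosen by the UMI counts of these 10 genes, so the values of these genes below are a description and carry no test.

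All 3 samples were whole cochleae of wild-type C57BL/6J mice, taken apart with the enzymes papain and thermolysin and then sorted to remove debris. E15 had 2 libraries and postnatal day 7 (P7) had 1. The labels do not say whether the E15 libraries came from separate animals or pools, so the p-values below measure the spread between these libraries, which may be technical. Within the set, 227 Sox2-positive cells (113 and 114 in replicates 1 and 2) were compared with 16 Fst-positive Sox2-negative cells (8 and 8). The set was also compared with 57 Otx2-positive epithelial cells of the same libraries (17 and 40), and with 343 of 7262 P7 cells that met the same rule.

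As background, the floor of the embryonic cochlear duct holds a prosensory domain marked by the transcription factor Sox2, from which hair cells and supporting cells of the organ of Corti arise. Notch ligands such as Jag1 keep Sox2 on in this domain, FGF20 starts the differentiation of its cells, and a source of BMP4 lies at its lateral edge. Follistatin, the product of Fst, binds activins, and activin and follistatin form opposing gradients along the duct. Tecta and Tectb encode the tectorins of the tectorial membrane, the matrix that the floor cells begin to secrete at this age. The roof of the duct is made of Otx2-positive cells that secrete otoconin-90 (Oc90).

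Hes5 and Hey2 are targets of Notch signalling that differed within the set and between the set and the roof-type cells. A promoter stretch of 250 bases is therefore shown for each. For Hes5 and Hey2 the differences within the set did not hold in every setting, as given below. The bases are from RefSeq on GRCm38.p6, written 5′ to 3′ on the gene's strand. Capitals mark TGGGAA, the core of the motif bound by RBPJ, or its reverse complement TTCCCA. The Hes5 stretch lies at chr4:154960673-154960922 on the plus strand and holds 2 matches, starting at bases 25 and 169. It lies within the RefSeq interval of the gene (154960626 to 154962372) and not before it. The Hey2 stretch lies at chr10:30842784-30843033 on the minus strand and holds 1 match, starting at base 44. Of 32851 mouse promoter stretches of the same length, 21.6% held at least 1 match and 2.77% held 2 or more, so a match describes the letters and is not evidence of binding.
Hes5: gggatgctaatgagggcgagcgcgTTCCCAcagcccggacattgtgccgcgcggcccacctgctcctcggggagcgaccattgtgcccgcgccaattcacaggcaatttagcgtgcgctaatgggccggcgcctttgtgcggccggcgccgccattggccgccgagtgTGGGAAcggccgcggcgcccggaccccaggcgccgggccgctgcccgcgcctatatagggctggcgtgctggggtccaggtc
Hey2: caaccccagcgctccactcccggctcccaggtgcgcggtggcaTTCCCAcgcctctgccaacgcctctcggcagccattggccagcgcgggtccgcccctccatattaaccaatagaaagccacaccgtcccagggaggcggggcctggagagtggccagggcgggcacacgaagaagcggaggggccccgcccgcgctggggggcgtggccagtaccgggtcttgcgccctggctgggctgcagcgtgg

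The E15 libraries held 46530036 and 44304364 UMIs and the P7 library 93829443. Set cells had a median of 12336 and 8477 UMIs and of 3934 and 3216 genes in E15 replicates 1 and 2. No barcode of the set was shared between libraries. The set carried all 10 listed epithelial markers, of which the rule used Epcam and Cdh1, at summed levels of 2735 and 3044 CPM, a gene's UMIs scaled to the summed UMIs of the cells. Listed mesenchymal markers summed to 311 and 343 CPM, with a median of 2 and 1 UMIs per cell. Of 6 endothelial genes Kdr, Tie1 and Cldn5 were at 0 (Cdh5 by the rule), while Pecam1 and Egfl7 were seen. That list summed to 16.6 and 16.2 CPM, against 17.7 and 25.1 CPM in mesenchymal cells of the same libraries. Macrophage markers summed to 0.974 and 2.81 CPM. Glial markers summed to 639 and 479 CPM, of which Sox10, a gene that otic epithelium also uses, had 232 and 207 CPM. A single cell held 378 of the 1313 glial UMIs of replicate 1, and another 198 of the 682 of replicate 2. In E15 replicate 1, 1 Fst-positive Sox2-negative cell held 319 melanocyte UMIs and another 357 neuronal UMIs. Counts of called genes without cells of 20 or more UMIs of the melanocyte or neuron lists, or of the glial list, are given for each comparison.

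The genes of the gate fell into a common and a rarer group. Sox2, on chromosome 3 (34649995 to 34652461 in RefSeq on GRCm38.p6, as for the locations that follow), had at least 1 UMI in 81.3% and 80.9% of set cells in replicates 1 and 2, at 511 and 519 CPM. Tectb, on chromosome 19 (55180726 to 55196313), was seen in 79.1% and 80.1% of cells, at 1034 and 962 CPM. Tecta, on chromosome 9 (42329622 to 42401690), was seen in 87.8% and 85.1%, at 419 and 435 CPM. Each of these 3 genes was thus present in about the same share of cells in both libraries. Fgf20, on chromosome 8 (40279166 to 40286953), was seen in 42.4% and 44.0% of cells, at 113 and 127 CPM. Fst, on chromosome 13 (114452262 to 114458989), was seen in 41.7% and 45.4%, at 344 and 406 CPM. Lfng, on chromosome 5 (140607341 to 140615545), which encodes a glycosyltransferase that modifies Notch, was seen in 16.5% and 11.3%, at 29.7 and 17.6 CPM. In mesenchymal cells of the same libraries the shares lay between 0.107% (Fgf20) and 3.52% (Fst), at median depths of 15159.5 and 11401 UMIs. A mesenchymal cell had at most 1 or 2 UMIs of Tectb, Tecta, Fgf20 or Lfng, but up to 34 of Sox2 and 14 of Fst, so the shares of the last 2 genes are not a measure of free RNA alone. When each cell was thinned to 3000 UMIs the shares were smaller, for example 58.3% and 62.0% for Sox2 and 18.1% and 32.6% for Fgf20, so a cell without a UMI of a gate gene may still express it.

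**Figure D1:**
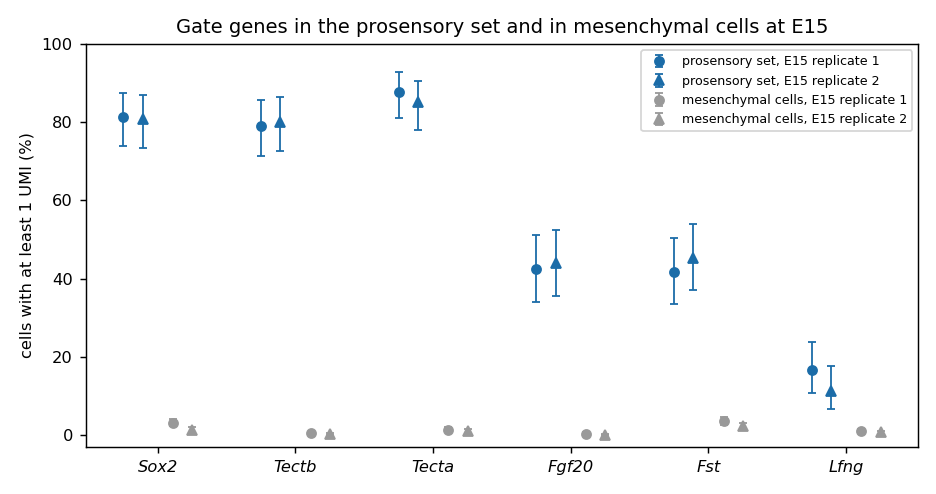
Share of cells with at least 1 UMI of each gate gene (vertical axis, percent) in the prosensory set and in mesenchymal cells of the same 2 E15 libraries, with exact 95% intervals. Circles are replicate 1 and triangles replicate 2. Sox2, Tectb and Tecta lie at or above 79.1% in the set, Fgf20 and Fst between 41.7% and 45.4%, and Lfng at 16.5% and 11.3%, while no gene passes 3.52% in mesenchymal cells.

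The rarer genes were combined in several ways. Fst was seen in 59.3% and 53.2% of Fgf20-positive cells, and Lfng in 30.5% and 19.4% of them, against 12.1% and 9.38% of Fst-positive cells. Of Lfng-positive cells, 78.3% and 75.0% had a UMI of Fgf20. Frequent combinations were Sox2 with Tectb and Tecta alone (24 and 17 cells), the same with Fgf20 (11 and 22 cells), and all of the genes but Lfng (21 and 18 cells). At the edge of the rule, 38 and 40 cells had exactly 2 of the 6 genes, with a median of 11.5 and 10 Epcam plus Cdh1 UMIs, and 80 and 103 epithelial cells with exactly 1 were left out, with a median of 14.5 and 10.

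Some listed genes of the lateral and medial duct floor, and Ecrg4, differed between cells with and without Fst. The 122 Fst-positive cells (58 and 64) had more Bmp4 and Gata2 than the 158 Fst-negative cells (81 and 77). Ecrg4, Calb1 and Epyc were close to absent from Fst-positive cells and present in a part of the Fst-negative cells. In the whole set Ecrg4 was seen in 22 and 14 cells, Calb1 in 17 and 11 and Epyc in 4 and 9. The comparison of cells with and without Fst, and that of cells with and without Fgf20, was added after the data had been examined. The rule admits a cell with Fst by 1 other gate gene, but a cell without Fst only by 2 of the other 5. Cells with Sox2 and Fst alone, 5 and 8 in replicates 1 and 2, thus have no Fst-negative counterpart in the set. What part this has in the genes called was not tested. UMIs were summed per library and cell group and compared with the quasi-likelihood test of edgeR. Genes with a Benjamini-Hochberg adjusted p below 0.05 and a fold of at least 1.5 were called. Of 9718 genes tested 3.46% were called, 187 (1.92%) higher and 149 (1.53%) lower in Fst-positive cells.

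Bmp4, which encodes the ligand made at the lateral edge of the domain, had 194 and 138 CPM in Fst-positive cells, against 6.32 and 6.67 CPM in Fst-negative cells (log2 fold change 4.71 ± 0.40 SE, edgeR adjusted p = 2.5e-05). Gata2, which encodes a GATA transcription factor, had 116 and 68.3 CPM in Fst-positive cells, against 2.71 and 2.67 CPM in Fst-negative cells (5.13 ± 0.41, adjusted p = 1.7e-05). Tac1, which encodes the precursor of substance P, had 462 and 364 CPM in Fst-positive cells, against 9.92 and 21.4 CPM in Fst-negative cells (4.83 ± 0.28, adjusted p = 1.2e-06). For all 3 genes both Fst-positive sums lay above both Fst-negative sums. The transcription factors Emx2 (log2 fold change 1.72), Isl1 (1.07) and Gata3 (1.03) rose with them, as did Hs3st1 (2.73), which encodes a heparan sulfate sulfotransferase. So did Hmga2 (1.44), which encodes a chromatin protein of immature cells, and Igfbp5 (1.38), which binds IGFs. Spry4, an FGF-induced inhibitor of FGF signalling, had 25.4 and 20.8 CPM in Fst-positive cells, against 2.71 and 1.33 CPM in Fst-negative cells (3.43 ± 0.54, adjusted p = 0.0025).

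Ecrg4, which encodes a secreted peptide precursor also called augurin, had no UMI in Fst-positive cells, against 392 and 591 CPM (878 UMIs) in Fst-negative cells. With a floor of 3 UMIs for the whole group, it was at least 255-fold lower in Fst-positive cells, and bounds below use the same floor. Epyc, a matrix proteoglycan of the duct floor, was at 0 in Fst-positive cells, against 37.9 and 68.1 CPM in Fst-negative cells (at least 27.0-fold lower). Otoa, which encodes otoancorin, an anchor of the tectorial membrane, was at 0 in Fst-positive cells, against 14.4 and 33.4 CPM in Fst-negative cells (at least 11.9-fold lower). Calb1, which encodes the calcium buffer calbindin, had 6.35 and 1.48 CPM in Fst-positive cells, against 112 and 68.1 CPM in Fst-negative cells (-4.40 ± 0.53, adjusted p = 4.1e-04). Each of these genes thus lay in the Fst-negative cells of both libraries. Smoc2 (log2 fold change -4.21), a matricellular protein, Igfbp3 (-2.03) and the cyclin gene Ccnd1 (-1.22) also fell.

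By list, 5 of 13 tested genes of the tectorial membrane and apical matrix were lower in Fst-positive cells and 0 were higher. The median log2 fold change of that list was -0.49, against 0.01 over all genes tested. The rule admits an Fst-negative cell only with 2 of the other 5 gate genes. Tecta was in 75.9% and 71.9% of Fst-positive cells, against 87.8% and 85.1% of the whole set. The whole set includes those cells, so the gap to Fst-negative cells is larger, and this list goes with the choice of cells. Of 14 floor markers 3 (Gata2, Bmp4 and Hey2) were higher, 3 (Epyc, Calb1 and Dcn) were lower and 8 were not called. Of 23 otic transcription factors 5 were higher and 1 was lower, of 16 FGF genes 4 and 1, of 20 BMP and activin genes 2 and 0, and of 13 Notch genes 1 (Hey2) and 1 (Hes1). Of 20 cell cycle genes 0 were higher and 1 (Hells) was lower. Without the filter on low counts the same test called 1 gene higher and 2 lower, and 32 of the 33 genes checked, all but Hs3st1, lost their call. DESeq2 called 139 higher and 109 lower, and with at least 3 of the 6 gate genes required the counts were 82 and 60, with Bmp4, Epyc, Smoc2, Hes1 and Hells among the genes that lost their call. Leaving out Fst-negative replicate 1 left 54 higher and 75 lower, and without Fst-negative replicate 2 they were 87 and 75. Without Fst-positive replicate 1 they were 108 and 84, and without Fst-positive replicate 2 they were 131 and 95. Pmel, Dct and Nefm were among the 8 largest rises and came mainly from the pigment and neuron RNA of replicate 1. Without the cells that held it 214 genes were higher and 186 lower, and without cells of glial RNA 228 and 203, where 4 of the 33 genes checked, Hes1 among them, lost their call. Hes1 lost its call in each of the 4 omissions of a library, and Hey2, Hells and Otoa lost theirs in 3 of the 4.

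Cells with Fgf20 had more Notch pathway RNA and less RNA of cell cycle genes. The 121 Fgf20-positive cells (59 and 62) were compared with the 159 others of the set (80 and 79). As for Fst, a cell without Fgf20 needed 2 of the other 5 gate genes and a cell with it only 1, and what part this has was not tested. Of 9721 genes tested 332 (3.42%) were called, 1.56% higher and 1.85% (180 genes) lower. Of 14 tested Notch genes 5 were higher, namely Hes5, Jag1, Hey2, Hes6 and Hey1, and 0 were lower, with a list median of 0.47 against -0.01 over all genes. Of 20 cell cycle genes 12 were lower and 0 were higher, with a median of -1.27.

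Hes5, a transcriptional repressor induced by Notch, had 41.2 and 32.6 CPM in Fgf20-positive cells, against 2.77 and 4.77 CPM in Fgf20-negative cells (3.33 ± 0.56, adjusted p = 0.0049). Jag1, which encodes the Notch ligand of the domain, had 269.6 and 422 CPM in Fgf20-positive cells, against 92.5 and 150.2 CPM in Fgf20-negative cells (1.49 ± 0.25, adjusted p = 0.0045). Hey2, a repressor of the same family, had 135 and 156 CPM in Fgf20-positive cells, against 53.6 and 76.3 CPM in Fgf20-negative cells (1.15 ± 0.22, adjusted p = 0.011). In each case both Fgf20-positive sums were above both Fgf20-negative sums. Cyp26b1, which encodes an enzyme that degrades retinoic acid, had 205 and 187 CPM in Fgf20-positive cells, against 44.4 and 48.9 CPM in Fgf20-negative cells (2.06 ± 0.16, adjusted p = 2.3e-05). Bdnf, which encodes a neurotrophin of cochlear neurons, had 138 and 154 CPM in Fgf20-positive cells, against 31.4 and 35.8 CPM in Fgf20-negative cells (2.09 ± 0.19, adjusted p = 9.9e-05). The Wnt pathway gene Lgr5 (log2 fold change 1.21) and Cdkn1b (1.07), which encodes the cell cycle inhibitor p27Kip1, rose as well. So did the heterochronic genes Lin28b (1.13) and Hmga2 (0.98).

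Mki67, a marker of dividing cells, had 22.6 and 36.0 CPM in Fgf20-positive cells, against 66.6 and 98.9 CPM in Fgf20-negative cells (-1.57 ± 0.27, adjusted p = 0.0054). Top2a (log2 fold change -1.48) and Pclaf (-1.43), a topoisomerase and a replication factor, fell by a like amount. Cdkn1c, which encodes the inhibitor p57Kip2, had 146 and 142 CPM in Fgf20-positive cells, against 393 and 428 CPM in Fgf20-negative cells (-1.53 ± 0.12, adjusted p = 2.3e-05). The related inhibitors Cdkn1b and Cdkn1c thus differed in opposite directions. H19 (log2 fold change -3.65), Igf2 (-1.23) and Gpc3 (-2.58), growth genes of which the first 2 are imprinted neighbours, were lower in Fgf20-positive cells, and so were Bmp4 (-3.62) and Gata2 (-2.36). Mesenchymal markers summed to 191 and 200 CPM in Fgf20-positive cells, against 419 and 442 CPM in Fgf20-negative cells, and their part in these results was not tested. In Fgf20-negative cells the list had 453 UMIs over 10 genes in replicate 1 and 371 UMIs over 9 genes in replicate 2. In the 18 set cells of replicate 1 without Sox2 or Fst, Lum held all 97 UMIs of that list. In the 19 such cells of replicate 2 the list had 81 UMIs over 4 genes. Col1a2 had 5.36 and 11.2 CPM in the whole set, against 545 and 547 CPM in mesenchymal cells. Without the filter on low counts 7 genes were called higher and 19 lower, and the calls of Hes5, Jag1, Hey2 and Mki67 were lost. Without Fgf20-negative replicate 1 the counts were 34 and 85, without Fgf20-negative replicate 2 they were 79 and 116, without Fgf20-positive replicate 1 they were 56 and 78, and without Fgf20-positive replicate 2 they were 101 and 146. Hes5 and Hey2 lost their calls in 3 of these 4 settings, Mki67 in 2 and Jag1 in 1, that without Fgf20-negative replicate 1. With at least 3 of the 6 gate genes required, Hes6, Hey1, Bmp4 and Igf2 lost their calls. Without cells of melanocyte or neuron RNA 162 genes were higher and 182 lower, and without cells of glial RNA 164 and 219, where Hes6 lost its call.

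The set was also divided by both genes into 4 groups of cells. Fst alone was seen in 23 and 31 cells, Fst with Fgf20 in 35 and 33, Fgf20 alone in 24 and 29, and neither in 57 and 48. Sox2 was present in 78.3% and 83.9% of cells with Fst alone, in 91.4% and 90.9% with both, in 95.8% and 100% with Fgf20 alone and in 70.2% and 60.4% with neither. Median depths were alike, between 11802 and 12493 UMIs in replicate 1 and between 8158 and 9975 in replicate 2. The values that follow are descriptions with no test of their own, since these groups divide the same cells again.

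Bmp4 was highest in cells with Fst alone, at 466 and 246 CPM. It was at 24.1 and 0 CPM in cells with both genes, 5.13 and 6.95 with Fgf20 alone and 6.96 and 6.50 with neither. Bmp4-positive cells of the set numbered 19 and 12, and 6 and 2 of them had Fgf20. In replicate 1 Bmp4 was seen in 43.5% of cells with Fst alone and 14.3% of cells with both genes. Gata2 had the same order at the top, with 267 and 103 CPM in cells with Fst alone and 22.3 and 23.7 CPM in cells with both. Of 20 and 19 Gata2-positive cells, 11 and 7 also had Bmp4. Tac1 lay in both kinds of Fst-positive cells, at 427 and 511 CPM with Fst alone and 484 and 176 CPM with both. It was seen in 26 of 139 and 26 of 141 set cells. Jag1 was highest in cells with Fgf20 alone, at 411 and 459 CPM, and lowest in cells with Fst alone, at 30.3 and 119 CPM. Hes5 had 59.0 and 38.2 CPM in cells with Fgf20 alone, 29.2 and 27.0 CPM with both genes, 2.76 and 10.6 CPM with Fst alone and 2.78 and 0 CPM with neither, and cells with both genes had 17 and 8 UMIs of it. By share of cells Hes5 was seen in 29.2% and 10.3% of cells with Fgf20 alone, 5.71% and 6.06% with both, 4.35% and 9.68% with Fst alone and 3.51% and 0% with neither, so that in replicate 2 more of the cells with Fst alone than of those with both held a UMI.

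Cells with neither gene had Ecrg4 at 605 and 955 CPM, while the other 3 groups together held 0 and 2 UMIs of it. Ecrg4-positive cells numbered 22 and 14, and 0 and 1 of them had Fgf20, 0 and 0 Fst, and 1 and 1 Bmp4. Epyc was seen in 4 and 9 cells, all with neither Fst nor Fgf20, and 2 and 7 of these had Ecrg4. Calb1 had 166 and 110.5 CPM in cells with neither gene and at most 13.8 CPM elsewhere. Isl1, by contrast, was present in each group, from 1125 and 1379 CPM in cells with both genes to 321 and 347 CPM in cells with neither.

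**Figure D2:**
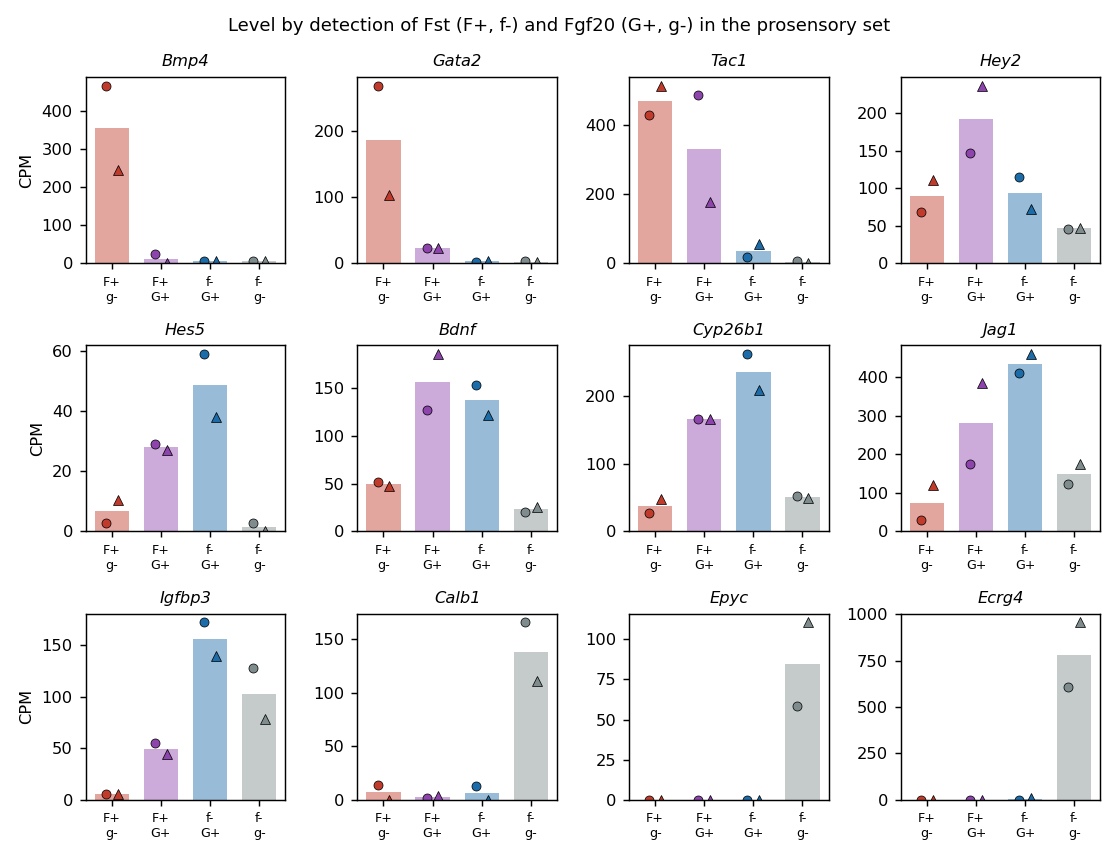
Level (CPM, vertical axes, each with its own scale) of 12 genes in set cells divided by detection of Fst (F+, f-) and Fgf20 (G+, g-). Bars are means of the 2 E15 libraries, circles replicate 1 and triangles replicate 2. Bmp4 stands at 466 and 246 CPM in cells with Fst alone, Jag1 at 411 and 459 CPM in cells with Fgf20 alone, and Ecrg4 at 605 and 955 CPM in cells with neither.

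Against Otx2-positive epithelium, more of the listed Notch and FGF genes were higher than lower in the set, while otic transcription factors differed in both directions. Oc90, the product of roof cells, had 4.87 and 30.2 CPM in the set, against 12925 and 11983 CPM in the Otx2-positive cells. Of 12193 genes tested 12.4% were called, 731 (6.00%) higher and 780 (6.40%) lower in the set. Of 14 floor markers tested 13 were higher and 1 (Gata2) was lower, with a median log2 fold change of 4.40 against 0.02 over all genes tested. Of 11 roof and other non-sensory markers 1 (Bmp4) was higher and 8 were lower. Because the rule sorted cells by genes of these same regions, these lists go with the choice of cells.

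Of 16 Notch genes 9 were higher and 1 was lower. Jag1 had 176 and 261 CPM in the set, against 4.59 and 14.0 CPM in Otx2-positive cells (log2 fold change 4.33 ± 0.33 SE, adjusted p = 8.4e-09). Hey1 had 117 and 132 CPM in the set, against 6.88 and 14.0 CPM in Otx2-positive cells (3.42 ± 0.28, adjusted p = 2.5e-08). Hey2, whose upstream stretch is printed above, had 92.0 and 109 CPM in the set, against 13.8 and 7.01 CPM in Otx2-positive cells (3.42 ± 0.32, adjusted p = 1.5e-07). Hes5 had 66 UMIs in the set (20.9 and 16.2 CPM), against 0 in Otx2-positive cells, and was at least 8.17-fold higher. The ligand and these target genes were thus low or at 0 in both libraries of the roof-type cells. Numb (1.53), an inhibitor of Notch, also rose, while the receptor gene Notch2 fell (-1.49). Notch1 (0.66), Hes1 (1.34), Hes6 (1.00) and Rbpj (0.75) were called higher but lost the call under DESeq2.

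Of 27 otic transcription factors 16 were higher and 9 were lower. Isl1, a LIM homeodomain factor, had 782 and 798 CPM in the set, against 20.7 and 14.0 CPM in Otx2-positive cells (5.60 ± 0.21, adjusted p = 5.5e-13). Gata3, which the auditory organ needs and whose mutation causes deafness, had 680 and 647 CPM in the set, against 84.9 and 68.9 CPM in Otx2-positive cells (3.16 ± 0.16, adjusted p = 3.7e-11). Sall3 (5.58), Sox21 (2.79) and Eya1 (2.25), a regulator of early ear development, rose too. Prox1, which marks supporting cell precursors, had 71 UMIs in the set against 1 in Otx2-positive cells, a ratio of 26.4 (95% counting interval 4.58 to 1056). Tbx1 had 7.31 and 4.22 CPM in the set, against 186 and 182 CPM in Otx2-positive cells (-4.90 ± 0.24, adjusted p = 2.6e-11). Lmx1a (-3.60), Pax2 (-2.32) and Gata2 (-1.23) fell with it, and Gsc, a homeobox gene, had 0 UMIs in the set against 381 (at least 342-fold lower).

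Of 16 FGF genes 8 were higher and 2 were lower. Fgf10, a ligand of the duct floor, had 120 and 107 CPM in the set, against 11.5 and 7.01 CPM in Otx2-positive cells (3.74 ± 0.30, adjusted p = 1.9e-08). Fgfr2, which encodes a receptor for FGF10, had 7.79 and 4.92 CPM in the set, against 98.7 and 119 CPM in Otx2-positive cells (-4.05 ± 0.27, adjusted p = 1.6e-09). The ligand and the receptor gene were thus high on opposite sides of the comparison. The response genes Etv1 (3.66), Etv5 (3.23), Dusp6 (1.91) and Spry2 (1.20) rose in the set, and the ligand gene Fgf9 fell (-1.85).

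Of 22 BMP and activin genes 8 were higher and 3 were lower. Inhba, which encodes the activin subunit that follistatin binds, had 86 UMIs in the set (27.8 and 20.4 CPM), against 0 in Otx2-positive cells (at least 10.7-fold higher). The activin receptor gene Acvr2a (1.96), Bmp4 (2.64) and Id2 (1.62), a BMP target, rose, and the BMP antagonist gene Nog fell (-2.65, lost under DESeq2). Of 27 Wnt genes 5 were higher and 2 were lower, which included the receptor gene Lgr5 (5.31) and the ligand gene Wnt4 (-6.94). Wnt4 had 2.92 and 0 CPM in the set, against 186 and 245 CPM in Otx2-positive cells. Of 18 hedgehog, retinoic acid and IGF genes 6 were higher and 1 was lower, and of 10 heterochronic and gradient genes 5 and 1. Hmga2 had 794 and 827 CPM in the set, against 64.2 and 86.5 CPM in Otx2-positive cells (3.38 ± 0.16, adjusted p = 1.3e-11).

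Of 20 cell cycle genes edgeR called 0 between the set and Otx2-positive cells, with 0 at an unadjusted p below 0.05, 0 called by DESeq2 and a list median of -0.19. Of 16 cell cycle regulators 3 were higher and 4 were lower. Cdkn1b had 424 and 490 CPM in the set, against 59.7 and 40.9 CPM in Otx2-positive cells (3.27 ± 0.19, adjusted p = 2.1e-10). Cdkn1c had 276 and 311 CPM in the set, against 1264 and 992 CPM in Otx2-positive cells (-1.92 ± 0.14, adjusted p = 3.4e-09). The inhibitors again differed in opposite directions. Of 14 matrix genes 3 were higher and 2 lower, and of 20 adhesion and gap junction genes 6 and 6, among them Gjb2 (4.47, lost under DESeq2), which encodes connexin 26, and the tight junction gene Cldn3 (-1.49). DESeq2 called 253 genes higher and 359 lower in this comparison, and 9 of the 65 genes checked lost their call under it. Without cells of melanocyte or neuron RNA the counts were 728 and 790, and without cells of glial RNA 566 and 653, where Hes1 lost its call. The Otx2-positive sums rest on 17 and 40 cells.

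**Figure D3:**
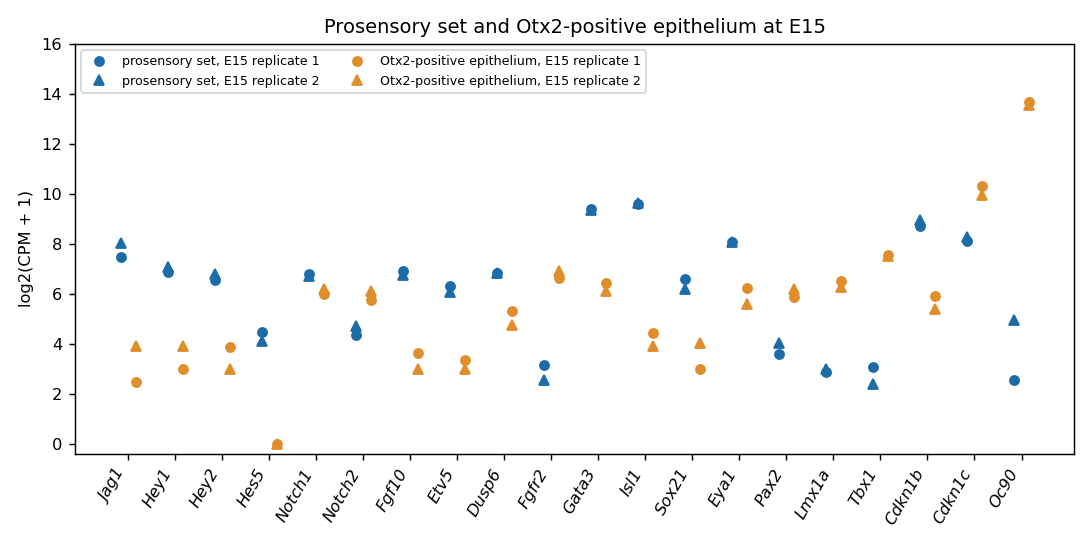
Level on a log2(CPM + 1) scale (vertical axis) of 20 genes in the prosensory set and in Otx2-positive epithelium of the same libraries. Circles are replicate 1 and triangles replicate 2. Jag1, Hey1, Hey2, Fgf10, Isl1 and Gata3 lie higher in the set, and Fgfr2, Tbx1, Lmx1a, Cdkn1c and Oc90 lie higher in Otx2-positive cells.

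Against all other E15 epithelium (378 and 486 cells) 18.7% of 14238 genes were called, 1266 (8.89%) higher and 1391 (9.77%) lower in the set, with Isl1 (3.71), Jag1 (3.65), Gata3 (2.49) and Cdkn1b (2.41) among the higher. The set had a median of 15 and 13 Epcam plus Cdh1 UMIs, against 1 and 1 in these other cells, and mesenchymal markers at 311 and 343 CPM, against 2380 and 2111 CPM in the other cells. Of 20 cell cycle genes 14 were lower, such as Mki67 (-1.45), but Mki67 and Top2a lost their call when at least 3 Epcam plus Cdh1 UMIs were required, and the counts were then 531 and 650. Without replicate 1 of the set the counts were 637 and 651, and without replicate 2 of the set 810 and 917. Without cells of melanocyte or neuron RNA they were 1377 and 1559, and without cells of glial RNA 1343 and 1504. What part the mesenchymal RNA has in this comparison was not tested.

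Few genes separated Sox2-positive cells from the 16 Fst-positive Sox2-negative cells. Of 9040 genes tested 0.465% were called, 15 (0.166%) higher and 27 (0.299%) lower in Sox2-positive cells. Nr2f1, which encodes a nuclear receptor that patterns the cochlea, had 1166 and 1107 CPM in Sox2-positive cells, against 324 and 587 CPM in Fst-positive Sox2-negative cells (log2 fold change 1.64 ± 0.21 SE, adjusted p = 0.0011). Cryab, a small heat shock protein gene, had 402 and 248 CPM in Sox2-positive cells, against 9.80 and 24.5 CPM, which rest on 2 UMIs, for a ratio of 24.2 (95% counting interval 6.69 to 200.4). Anxa5, Socs2 and Ckb were higher as well, with log2 fold changes of 2.00, 1.87 and 1.80. The lower genes Dct, Pmel and Nefm, of pigment cells and neurons, came from the 2 cells of replicate 1 noted above. Without cells of 20 or more melanocyte or neuron UMIs 14 genes were higher and 2 lower. Nr2f1, Cryab, Anxa5, Socs2 and Ckb kept their calls then, and Anxa5 lost its call under DESeq2. Without cells of glial RNA the counts were 20 and 30.

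In the lists 0 genes were called except Ccnd1 (1.43, adjusted p = 0.039), which lost its call without those cells. At an unadjusted p below 0.05 there were 3 of 14 Notch genes, 10 of 23 transcription factors, 7 of 13 floor markers and 1 of 20 cell cycle genes, and DESeq2 called 0, 1, 0 and 0 genes of these lists. With 16 cells on one side, a lack of calls does not show that the cells were alike. Of the 16 cells 6 had under 3000 UMIs and 3 had over 10% mitochondrial UMIs, and 3 were predicted doublets. Their Fst count ranged from 1 to 32 UMIs, with 1 UMI in 6 cells. Without the filter on low counts 0 genes were called in either direction, with 1117 at an unadjusted p below 0.05, and with DESeq2 the counts were 19 and 84. Without Sox2-positive replicate 1 the counts were 0 and 0, without Sox2-positive replicate 2 they were 3 and 6, without Fst-positive Sox2-negative replicate 1 they were 66 and 6, and without Fst-positive Sox2-negative replicate 2 they were 106 and 124. Nr2f1, Cryab, Anxa5, Socs2 and Ckb each lost their call in at least 1 of these settings.

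Cells that carried cell cycle RNA made up a smaller share of Fgf20-positive than of Fgf20-negative cells in both libraries. After each cell was thinned to 3000 UMIs, 32.3% of the set in replicate 1 (exact 95% interval 24.3 to 41.2) and 38.0% in replicate 2 (29.6 to 46.9) had at least 2 UMIs of the 20 cell cycle genes. Without thinning the shares were 66.2% and 63.8%, and 12 cells in each library were too shallow to be thinned. The share was 19.6% and 21.7% in Fgf20-positive cells, against 42.3% and 52.2% in Fgf20-negative cells. It was 29.1% and 25.0% in Fst-positive cells, against 34.7% and 49.3% in Fst-negative cells. In Sox2-positive cells it was 29.5% and 32.7%, and among the Fst-positive Sox2-negative cells 2 of 5 and 1 of 5 deep enough were counted. Otx2-positive epithelium had 35.3% and 39.5%. The Fgf20-positive and Fgf20-negative intervals overlapped in replicate 1 (10.2 to 32.4 and 30.6 to 54.6) and lay apart in replicate 2 (12.1 to 34.2 and 39.8 to 64.4). They cover counting error only, and with 2 libraries a side no exact test across libraries can pass a threshold of 0.05.

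**Figure D4:**
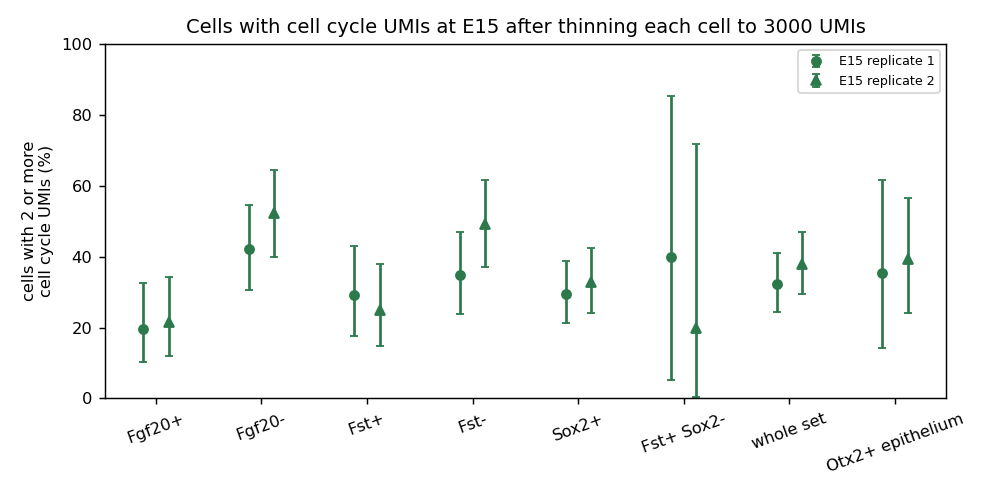
Share of cells (percent) with at least 2 UMIs of 20 cell cycle genes after each cell was thinned to 3000 UMIs, with exact 95% intervals, in groups of the set and in Otx2-positive epithelium at E15. Circles are replicate 1 and triangles replicate 2. Fgf20-positive cells lie at 19.6% and 21.7%, and Fgf20-negative cells at 42.3% and 52.2%.

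Of the early hair cell genes, Atoh1 and Pou4f3 were seen in few cells, while others were spread through the set. Atoh1, the transcription factor that starts hair cell differentiation, had 52 UMIs in 14 cells of replicate 1 and 15 UMIs in 12 cells of replicate 2, and 12 of the 14 and 7 of the 12 cells had Fgf20. In mesenchymal cells of both libraries it was at 0. Pou4f3, a factor of committed hair cells, had 81 UMIs in 4 cells of replicate 1 and 0 in replicate 2, and 75 of the 79 Ccer2 UMIs of replicate 1 lay in 1 cell. At least 3 of the 8 hair cell markers were seen in 9 cells of replicate 1 (6.47%, 3.0 to 11.9) and 5 cells of replicate 2 (3.55%, 1.16 to 8.08). These markers summed to 193 and 81.5 CPM in the set, against 70.5 and 68.3 CPM in mesenchymal cells, so the shares are not counts of hair cells. Hes6, a relative of the Hes repressors, was seen in 76 of 139 and 87 of 141 cells, Myo6, an unconventional myosin gene, in 46 and 29, and Cib2, of a calcium-binding protein of hair cells, in 30 and 31. The later genes Lhx3, Barhl1, Otof and Calb2 were at 0 in the set. Atoh1 was called higher in Fgf20-positive than in Fgf20-negative cells (44.3 and 15.4 CPM against 8.32 and 7.15 CPM, log2 fold change 2.03 ± 0.52, adjusted p = 0.047). DESeq2 did not make that call, and it was lost without cells of glial RNA (1.34, adjusted p = 0.15) and without any one of 3 of the 4 sums (all but Fgf20-positive replicate 2).

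The cells that met the same rule at P7 had less RNA of cell cycle genes and more of matrix genes than the E15 set. The P7 library has no replicate and was assumed to vary like the E15 libraries, so the SEs and p-values hold no measure of variation at P7, and age cannot be told apart from library or software version. Of 14238 genes tested 41.0% were called, 2692 (18.9%) higher and 3148 (22.1%) lower in the E15 set. The gate genes themselves had other shares at P7: Tectb was in 86.3% of cells and Lfng in 56.3%, while Tecta was in 30.3%, Fst in 16.9% and Fgf20 in 1.46% (5 of 343 cells). Fst was also seen in 11.2% of P7 mesenchymal cells. Mesenchymal markers summed to 311 and 343 CPM in the E15 set, against 3066 CPM in the P7 cells, and glial markers to 639 and 479 CPM in the E15 set, against 4156 CPM in the P7 cells, where 1 cell held 7563 of the 21591 glial UMIs. Without cells of 20 or more glial UMIs, which left 134 and 139 E15 and 284 P7 cells, 2574 genes were higher and 2975 lower, and 1 of the 52 genes checked (Bmp4) lost its call. Without cells of melanocyte or neuron RNA the counts were 2725 and 3240. The part of mesenchymal RNA in the results was not tested.

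Of 10 heterochronic and gradient genes 7 were higher and 2 were lower in the E15 set. Lin28b, an RNA-binding inhibitor of let-7 microRNAs, had 59.9 and 71.7 CPM in the E15 set, against 0 at P7 (at least 112-fold higher). Hmga2, a let-7 target, had 794 and 827 CPM in the E15 set, against 3.85 CPM at P7 (log2 fold change 7.58 ± 0.18 SE, adjusted p = 2.2e-06). Igf2bp1 (4.99), another let-7 target, was higher too. Of 20 cell cycle genes 19 were higher and 0 were lower, with a median of 2.24 against -0.04 over all genes tested. Top2a had 110 and 135 CPM in the E15 set, against 20.8 CPM at P7 (2.41 ± 0.21, adjusted p = 1.5e-04), and Ccnd1 had 827 and 716 CPM in the E15 set, against 24.4 CPM at P7 (4.84 ± 0.16, adjusted p = 3.6e-06). After thinning, 32.3% and 38.0% of the E15 set had at least 2 cell cycle UMIs, against 5.18% of the P7 cells (3.05 to 8.17). The inhibitor Cdkn1a (-2.86) and the antiproliferative gene Btg2 (-2.27) were lower in the E15 set.

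Signalling genes went in both directions, as did all genes tested, of which 18.9% were higher and 22.1% lower in the E15 set. Of 18 Notch genes 8 were higher and 2 (Heyl and Hes1) lower, although Hes1 lost its call without either E15 library. Hey2 had 92.0 and 109 CPM in the E15 set, against 22.5 CPM at P7 (2.01 ± 0.25, adjusted p = 7.4e-04). Of 17 FGF genes 9 were higher and 3 lower, of 27 Wnt genes 8 and 9, of 24 BMP and activin genes 6 and 9, and of 18 hedgehog, retinoic acid and IGF genes 9 and 5. Lgr5 had 129.5 and 117 CPM in the E15 set, against 21.6 CPM at P7 (2.39 ± 0.18, adjusted p = 8.5e-05). Of 27 otic transcription factors 11 were higher, such as Sall3 (3.61), Eya4 (3.15) and Emx2 (2.77), and 3 were lower. Tac1, which was higher in Fst-positive than in Fst-negative cells at E15, had 709 UMIs in the E15 set and 2 at P7. That is a ratio of 530 in CPM (95% counting interval 146 to 4383).

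Of 16 matrix genes 1 (Otogl) was higher and 12 were lower in the E15 set, with a median of -1.96. The calls of Otogl and Heyl depended on which cells were kept. Epyc had 20.5 and 35.8 CPM in the E15 set, against 2303 CPM at P7 (-6.54 ± 0.28, adjusted p = 7.6e-06), and P7 mesenchymal cells had 13.5 CPM. Col11a2 (-4.94), Col9a1 (-3.26) and Col2a1 (-2.26), collagen genes of the tectorial membrane and of cartilage, were lower as well. For these 3 genes the P7 gated cells had 410.0, 1693 and 2479 CPM, against 886, 3372 and 5060 CPM in P7 mesenchymal cells, and the part of RNA from those cells was not tested. Of 20 adhesion and gap junction genes 8 were higher and 9 were lower, and the connexin genes differed in both directions. Gja1 (3.09) and Gjc1 (1.54) were higher in the E15 set. Gjb6, which encodes connexin 30, had 5.84 and 4.92 CPM in the E15 set, against 166 CPM at P7 (-5.06 ± 0.17, adjusted p = 4.0e-06). Gjb2, its partner in cochlear gap junctions, had 206 and 248 CPM in the E15 set, against 628 CPM at P7 (-1.61 ± 0.13, adjusted p = 1.0e-04). P7 mesenchymal cells had 83.9 and 139 CPM of Gjb6 and Gjb2. DESeq2 called 1638 higher and 2268 lower.

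**Figure D5:**
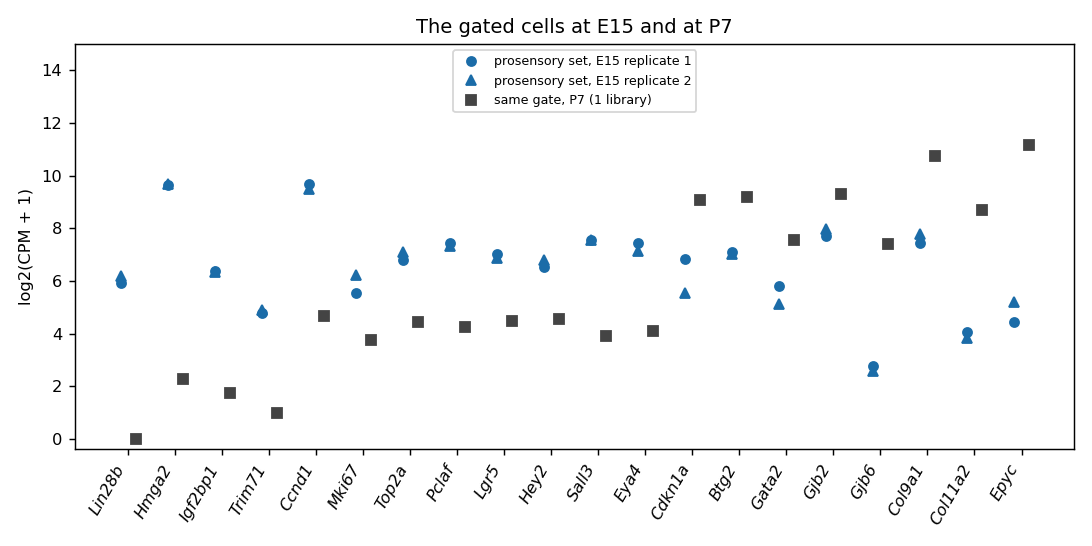
Level on a log2(CPM + 1) scale (vertical axis) of 20 genes in the E15 prosensory set (circles replicate 1, triangles replicate 2) and in the cells that met the same rule at P7 (squares, 1 library). Lin28b, Hmga2 and Ccnd1 lie higher at E15, while Epyc, Col11a2, Gjb6 and Cdkn1a lie higher at P7.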

How the data were processed

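The deposited values were raw UMI counts for each gene in each barcode, from 2 E15 libraries and 1 P7 library of the 10x 3' v3 assay. The authors made these counts with Cell Ranger 6.1.2 on GRCm38 (mm10), per the submitters' processing notes. Per the file headers the version was 3.1.0 for P7 and 6.1.2 for E15. The 27734 genes that all libraries list were used. How cells were called before deposit is not given in the sources used here.

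Cells were filtered and gated as described in the report. Mesenchymal cells had 5 or more UMIs of Col1a2 plus Col3a1 and none of Epcam or Cdh1. Doublets were scored with Scrublet in scanpy 1.11.5 (Python 3.11.15). Its automatic threshold marked 3 cells at P7 and 6 and 5 at E15, so the highest-scored 422, 64 and 100 were marked instead and removed in an alternative. Counts were summed per library and cell group, scaled by TMM, filtered with filterByExpr and compared by edgeR 4.0.16 in R 4.3.3 (quasi-likelihood). The SE was taken as the log2 fold change over the root of the F statistic, and p-values were Benjamini-Hochberg adjusted over all genes tested. CPM are counts scaled to a group's total UMIs. The 10 gate genes received no call. The comparison with other E15 epithelium and that with P7 come from 1 fit, while the others have their own.

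The members, gene lists and tests were chosen with earlier results of these data known. The comparison with Otx2-positive cells was planned as an alternative to that with all other epithelium and is given first because of what those cells held. Genes named are up to 8 per direction with the largest fitted change and at least 50 CPM, members of 14 gene lists, and cell type markers, and not all that this rule allows are given. Cell groups of a library were compared without a block for the library. Deviations of groups from the same library correlated at 0.00655 to 0.0445 over genes, although they share that library by construction. On simulated counts, 200 genes were changed in each comparison. Of 4-fold changes, 32% (Sox2-positive cells), 51% (P7), 61% (Otx2-positive), 69% (Fgf20), 78% (other epithelium) and 86% (Fst) were recovered. Of 2-fold changes, 2% to 12% were recovered, and there were 0 to 7 false calls. Whether these rates hold for the measured sums, some of which rest on 8 cells, was not tested. DESeq2 1.42.0 was an alternative. Cells of 20 or more UMIs of the glial list, or of the melanocyte or neuron list, were left out in alternatives added after the data had been examined. Alternatives that removed every cell with 1 UMI of certain glial markers are not reported here. The strictest of them left 17 and 32 E15 and 46 P7 cells of the set, lowered the counts of calls against P7, against other E15 epithelium and for Sox2-positive cells, and ended some calls, those of Otogl and Heyl against P7 among them. Intervals of shares are exact and cover counting error only.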

Additional observations from a re-analysis of the deposited data

How the results depend on the processing

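For Sox2-positive against Fst-positive Sox2-negative cells, the counts called higher and lower, 15 and 27 as reported, depended on most settings, and the cause was not tested. The higher count was 8 with RLE scaling, and the lower count was 84 with DESeq2 and 11 with predicted doublets removed. Both were 0 without the filter on low counts, where 1117 genes had an unadjusted p below 0.05. The higher count was 23 with at least 3 Epcam plus Cdh1 UMIs. The counts were 125 and 139 with at least 3 of the 6 gate genes, 54 and 5 with cells thinned to 3000 UMIs, 56 and 63 with Sox2-positive Fst-negative cells in place of all Sox2-positive cells, and the lower count was 2 without cells of melanocyte or neuron RNA. Leaving out 1 library of a group gave 0 to 106 higher and 0 to 124 lower. For Dct and Pmel the log2 fold change, negative as reported, was 2.79 and 3.68 without Fst-positive Sox2-negative replicate 1, which held their UMIs (the lowest values were -13.88 for Dct without Sox2-positive replicate 2 and -13.62 for Pmel without Sox2-positive replicate 1), and for Nefm it was 6.88 with predicted doublets removed.

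Against other E15 epithelium, reported with 1266 and 1391 calls, the counts were 531 and 650 with at least 3 Epcam plus Cdh1 UMIs, 731 and 780 with Otx2-positive epithelium as the other side, and 637 to 1369 and 651 to 1597 with 1 library of a group left out. Against Otx2-positive epithelium they were 253 and 359 with DESeq2, and 534 to 816 and 608 to 851 with 1 library left out. Against P7 the higher count was 1638 with DESeq2. With 1 E15 library left out they were 2006 to 2262 higher and 2240 to 2581 lower, with the remaining library assumed to vary like the others.

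For Fst-positive against Fst-negative cells the counts were 1 and 2 without the filter on low counts (1598 genes at an unadjusted p below 0.05), 82 and 60 with at least 3 of the 6 gate genes, and 54 to 131 and 75 to 95 with 1 library left out. For Fgf20-positive against Fgf20-negative cells they were 7 and 19 without that filter, the higher count was 98 with at least 3 of the 6 gate genes, and they were 34 to 101 and 78 to 146 with 1 library left out.

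With the library as a replicate block, which pairs cell groups of the same library, the counts were 20 and 30 for Sox2-positive cells, 1403 and 1511 against other E15 epithelium (1391 and 1471 in the same E15 sums without the block), 733 and 764 against Otx2-positive epithelium, 214 and 174 for Fst and 174 and 212 for Fgf20. No gene checked in these 5 comparisons lost its call under the block. The P7 comparison has no shared replicate number and no block.

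Thinning to 3000 UMIs gave shares in replicates 1 and 2 of 58.3% and 62.0% for Sox2, 65.4% and 66.7% for Tectb, 65.4% and 56.6% for Tecta, 18.1% and 32.6% for Fgf20, 29.1% and 34.1% for Fst, and 7.09% and 6.98% for Lfng. With at least 3 cell cycle UMIs required, the share in replicate 2 was 26.4% of the set, 20% of Sox2-positive, 13.3% of Fst-positive and 10.0% of Fgf20-positive cells, and at P7 it was 2.13%. Depth limits the genes near 1 UMI per cell, and the 16 Fst-positive Sox2-negative cells give the least precise sums.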
